A study of Sparus aurata with 53 samples.

Results

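The genes described here are the 46, of 13,940 on the array, whose expression in larvae of the gilthead sea bream (Sparus aurata), sampled whole, followed a 24 h rhythm with its fitted maximum from 6 h to under 9 h zeitgeber time, in the middle of the light phase. They were chosen by their measured values. A 24 h cosine and sine were fitted to each gene over all 53 arrays, and a gene was kept when the fit explained at least 0.3 of the variance (R2), its amplitude was at least 0.4 log2 units, its spot was well above background on at least 27 arrays and its fitted peak lay in the window. In all, 886 genes met the first 3 limits at any peak time, or 6.36% of the genes on the array, and the neighbouring windows from 3 h to under 6 h and from 9 h to under 12 h held 126 and 79 of them. Amplitude, peak time and the size of the daily difference chose these genes, so they are given below as a description and carry no test.

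Larvae were 30 days old, were kept at 12 h of light and 12 h of darkness with light on at 0 h and off at 12 h, and were fed live Artemia nauplii ad libitum at that age. A single whole larva was hybridised to each array, with 6 larvae at each of the 9 sampling times from 0 h to 24 h (every 3 h) and 5 at 12 h. All larvae had the same rearing, and the sources used here do not tie a larva to a tank. Sampling times were spread over 7 array slides but not evenly (0 h lies on slides 1 to 6 and 24 h on slides 2 to 7). Levels are log2 intensities relative to the 75th percentile of the same array, so a difference of 1 unit is a doubling, and levels of different genes are not compared. Since RNA came from whole animals, fewer cells of a type and less RNA per cell cannot be told apart. RNA of the larva was also not separated from any RNA of food in its gut. For the label whole larva, 4 described markers were well above background on all 53 arrays. They were a keratin of skin, the alpha-crystallin B chain, listed here under eye, and 2 rhodopsin-linked phosphodiesterase subunits of the retina. This is a weak check, since they were taken for skin and eye alone and most genes were well above background. Between 74.2% and 94.3% of genes were well above background on an array, no spot was saturated (0 over all arrays), and intensity at the 75th percentile ranged from 142 to 504. The median of all genes moved by 0.17 log2 units over the day, from -2.19 at 6 h to -2.03 at 21 h, which is smaller than the smallest difference of the 46 genes between these parts of the day, 0.67 between the means of 6 h with 9 h and of 18 h with 21 h, a difference that the choice of the genes used.

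Daily transcript rhythms in animals come from the circadian clock, in which CLOCK and BMAL1 drive period and cryptochrome genes whose products then repress them, and from direct responses to light and food. In zebrafish the clocks of many tissues respond to light directly. For the gilthead sea bream, the study cites earlier work in which the liver clock followed feed and not the light cycle. In larvae sampled under a light-dark cycle, these sources cannot be told apart. Of the 46 genes, 6 have a gene description in the study's tables. They are C2_16956 (the orphan nuclear receptor NR0B2), C2_45763 (nuclear receptor coactivator 7, NCOA7), C2_19297 (Fanconi anemia group D2 protein, FANCD2), C2_68747 (Wee1-like protein kinase), C2_73896 (beta-citryl-glutamate synthase B) and C2_2270 (cytosolic sulfotransferase 3). The other 40 are named by their clone code. Of the 46 codes, 37 begin with C2 and 9 with C3. The C3 share was 19.6%, beside 15.1% of all genes on the array.

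The mean course of the 46 genes, each centred on its own mean, was a single broad daytime elevation. It was -0.45 ± 0.09 (SD, n = 6) at 0 h, 0.57 ± 0.31 at 3 h, 0.94 ± 0.08 at 6 h, 0.90 ± 0.10 at 9 h and 0.54 ± 0.16 (n = 5) at 12 h. In darkness (n = 6 each) the mean was -0.43 ± 0.17 at 15 h, then -0.71 ± 0.23 at 18 h, with its lowest value of -0.87 ± 0.09 at 21 h. When light was due again, at 24 h, it was -0.39 ± 0.31. The 3 clones of largest amplitude, described below, carried much of these means. Without them, the mean of the other 43 genes was 0.70 ± 0.07 at 6 h, then 0.27 ± 0.11 at 12 h, and -0.22 ± 0.15 by 15 h, with its lowest value of -0.68 ± 0.07 at 21 h. At 24 h this mean, -0.32 ± 0.18, lay below its value of -0.19 ± 0.09 at 0 h rather than above it. In the mean of all 46, the lowest larva at 6 h or 9 h, at 0.72, lay above the highest larva at 15 h to 21 h, at -0.16. Its fitted peak was at 7.57 ± 0.15 h (SE), at 7.57 ± 0.15 h with slide as a block, and between 6.60 h and 8.35 h in fits to each of the 7 slides alone. The value of 6.60 h came from slide 7, which held 6 arrays and none of 0 h, 3 h or 6 h. For the mean of the other 43 genes, the fits by slide peaked between 6.95 h (slide 3) and 8.48 h (slide 6).

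Single genes spread around that course. The highest of the 9 means fell at 6 h in 24 genes and at 9 h in 15, with 4 genes highest at 12 h and 3 at 3 h. The lowest fell at 21 h in 28 genes, at 18 h in 10 and at 0 h in 6. C2_29097 was lowest at 15 h and C2_41119 at 24 h. The largest step up between neighbouring times came in the first 3 h of light in 23 genes and from 3 h to 6 h in 11, while 11 had it from 21 h to 24 h and 1 from 18 h to 21 h. Fitted peaks ran from 6.18 ± 0.40 h (C2_29097) to 8.86 ± 0.37 h (C2_11249), with 14 genes from 6 h, 19 from 7 h and 13 from 8 h. The SE of a peak time had a median of 0.48 h and reached 0.76 h, so neighbours in this order were within their errors. Amplitudes ran from 0.40 ± 0.08 (C2_25360) to 5.40 ± 0.54 (C3_c41564), with a median of 0.58. They were at least 1 for 10 genes and under 0.6 for 24. For 25 genes the lowest of the 12 larvae of 6 h and 9 h was above the highest of the 12 of 18 h and 21 h. On the whole array 0.373% of genes did so, a share from which nothing is read because the choice of the genes used these same values.

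**Figure D1:**
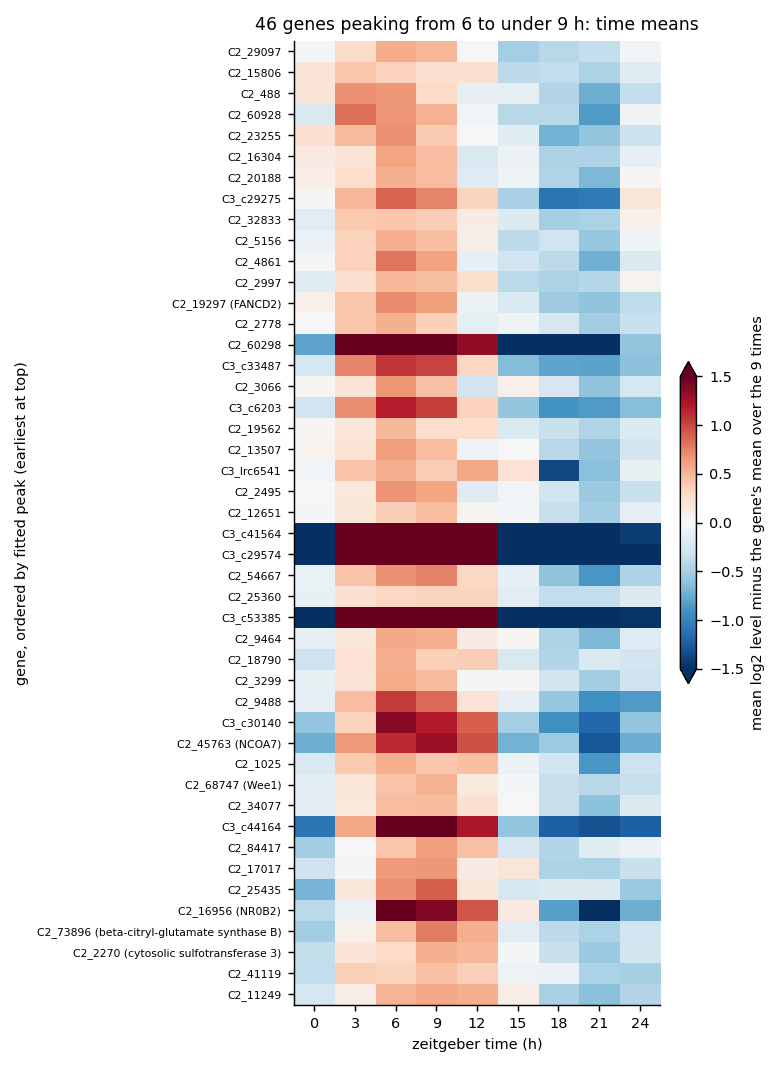
Mean log2 level at each of the 9 sampling times (horizontal axis, zeitgeber h) of the 46 genes (rows, ordered by fitted peak), minus the mean of each gene over the 9 times, with colours limited to ±1.5 log2 units. The columns from 3 h to 12 h are mostly above the gene's mean and those from 15 h to 24 h mostly below it, and 28 of 46 rows are lowest at 21 h.

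**Figure D2:**
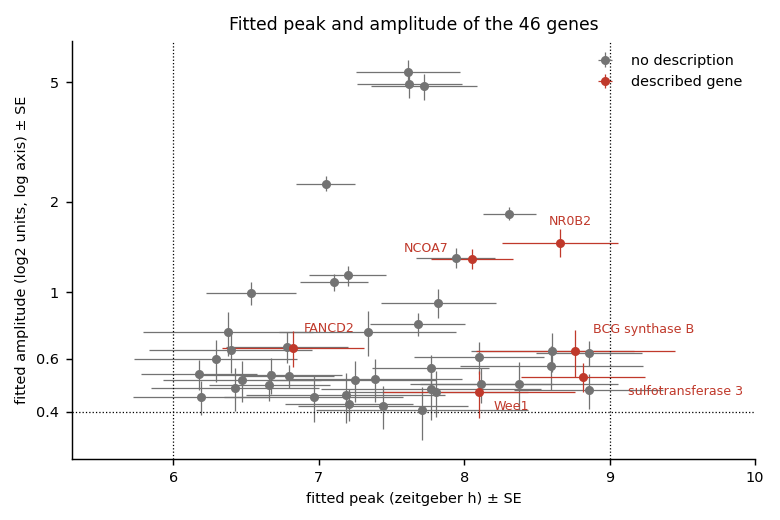
Fitted amplitude (vertical log axis, log2 units) against fitted peak (zeitgeber h) of the 46 genes with standard errors from 53 arrays; dotted lines mark the limits used for the choice, and the 6 described genes are in red. The 3 clones near 7.6 h to 7.7 h have amplitudes from 4.85 to 5.40, and 24 genes lie below 0.6.

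The genes just inside and just outside each limit show how sharp the choice was. C2_18790 had an R2 of 0.317 and C3_c21547, outside, 0.298. C2_25360 had an amplitude of 0.40 and C2_8292, outside, 0.39. The earliest peak inside was 6.18 h (C2_29097), with C2_13574 at 5.97 h outside, and the latest was 8.86 h (C2_11249), with C2_87808 at 9.03 h outside. Detection was the limit that left out large rhythms. C3_c41564 and C3_c53385 were kept with 27 arrays well above background, whereas C3_c29376 and C3_c42830 were left out with 26.

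The 3 genes of largest amplitude were well above background in nearly every larva by day and in few at night. They are the clones C3_c41564, C3_c29574 and C3_c53385, none with a gene description. At 0 h, C3_c41564 lay between -7.55 and -6.77 (median -7.22), and the count of larvae over background was 0 of 6. At 6 h its lowest, median and highest larvae were at 1.16, 1.98 and 2.78, and at 12 h they were at 1.42, 1.51 and 5.05. At 15 h, after light off, they were at -7.81, -6.54 and -5.46, with 1 of 6 larvae well above background. No larva of 6 h, 9 h or 12 h overlapped with any of 15 h to 21 h or of 0 h. The mean at 12 h was 2.27 ± 1.56 (n = 5). It was 326-fold that at 0 h when each 0 h value was raised to the lowest signal well above background on its array. Such a floor is not a strict bound. In replicate 1 at 21 h, NCOA7 was not well above background at -4.34, while C3_c29574 was at -4.54. C3_c29574 had means of 2.06 ± 1.47 at 12 h and -6.15 ± 0.49 at 0 h, without the floor (259-fold with the same floor). C3_c53385 had means of 1.23 ± 1.41 and -7.34 ± 0.37, without the floor, at these times (158-fold with it). At 15 h, 18 h and 21 h, C3_c29574 was well above background in 3, 2 and 2 of 6 larvae and C3_c53385 in 0, 2 and 1.

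A few larvae went against their sampling time in all 3 clones. Replicate 4 at 3 h was at -6.39, -5.33 and -6.40 for C3_c41564, C3_c29574 and C3_c53385, not well above background, while the other 5 larvae of 3 h were between -0.35 and 4.90. Replicates 5 and 6 at 24 h were between 0.08 and 2.03, in the range of daytime larvae, while the other 4 larvae of 24 h were between -7.22 and -5.21. The same larvae were not set apart in the mean of the other 43 genes. There, replicate 4 at 3 h was at 0.31 in a range from -0.09 to 0.53, and replicates 5 and 6 at 24 h were at -0.41 and -0.25 in a range from -0.60 to -0.08. Deviations from the mean of the sampling time went together in the 3 clones over the 53 arrays. Pearson's r was 0.96, 0.94 and 0.93 for their pairs, a description of values that share the array. C3_c41564, C3_c29574 and C3_c53385 were well above background on only 27, 31 and 27 of these arrays. How far values near background carry these correlations was not tested. Without these 3 larvae and replicate 5 at 3 h, r was 0.87, 0.79 and 0.75 over 49 arrays and the amplitude of C3_c41564 was 5.57.

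The same course reached beyond the 46 genes. In all, 11 clones passed the background limit in each of the 17 larvae of 6 h, 9 h and 12 h and in at most 6 of the 18 larvae of 18 h, 21 h and 0 h, with a mean difference of at least 3 log2 units, a definition made after the values were seen. All 11 have C3 codes. The 3 clones above are among them, and the other 8 met the remaining limits with fitted peaks from 7.38 h to 7.85 h but were well above background on only 24 to 26 arrays. The one of largest amplitude, C3_c29376 (7.15), had a mean of 4.69 over 6 h, 9 h and 12 h and -6.94 over 18 h, 21 h and 0 h. In it too, replicate 4 at 3 h was low (-6.40) and replicates 5 and 6 at 24 h were high (3.06 and 3.24). In total, 11 genes missed the detection limit alone.

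**Figure D3:**
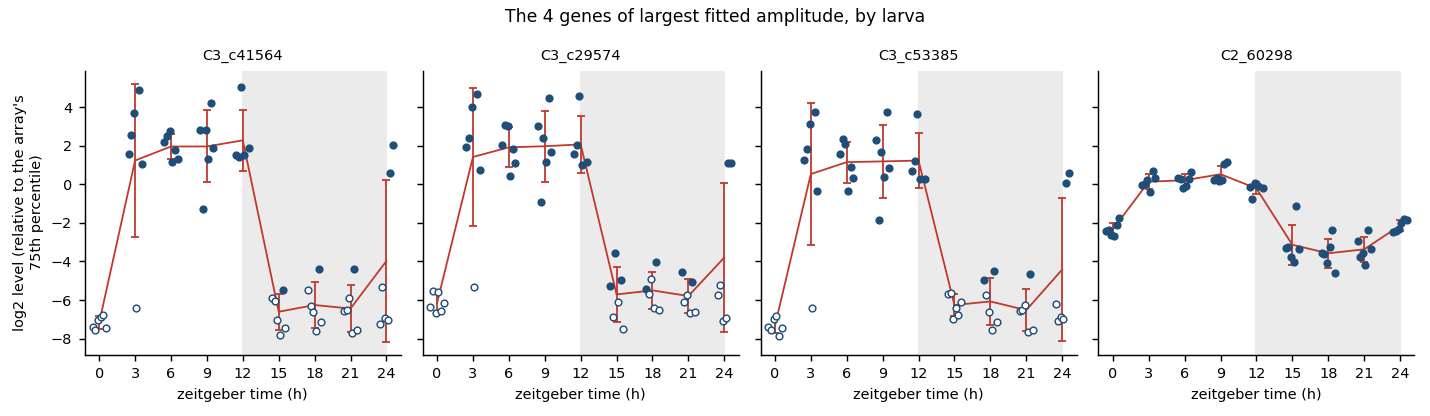
Log2 level relative to the 75th percentile of the array in each larva (points, open where not well above background) of the 4 genes of largest amplitude by zeitgeber time, with means and SD in red and darkness in grey. The 3 clones at left are well above background in all 5 larvae of 12 h and in 1, 3 and 0 of the 6 of 15 h, with replicate 4 at 3 h low and 2 larvae at 24 h high, whereas C2_60298 stays above background on all 53 arrays.

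C2_60298, with an amplitude of 2.30 ± 0.13 and a peak at 7.05 ± 0.21 h, was next and was measured above background in every larva. Its lowest, median and highest larvae were at -2.69, -2.41 and -1.76 at 0 h and at -0.41, 0.11 and 0.69 at 3 h. The groups did not overlap, and the level at 3 h overlapped with that at 6 h (-0.19 to 0.65). At 12 h they were at -0.75, -0.13 and 0.07 and at 15 h at -4.05, -3.31 and -1.13, again without overlap. Means at 9 h (0.52 ± 0.45) and 18 h (-3.58 ± 0.76) differed 17.1-fold. From 21 h to 24 h, in the last hours of darkness, the mean went from -3.37 ± 0.64 to -2.14 ± 0.29. Replicate 5 was the highest larva at each of 15 h, 18 h and 21 h (-1.13, -2.36 and -2.38). These are different larvae, all on slide 6, and the part of the slide in this was not tested.

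C3_c44164 had the smallest peak error, 8.31 ± 0.18 h, with R2 of 0.893. Its lowest, median and highest larvae were at -4.0, -3.66 and -2.82 at 0 h, at -2.47, -1.86 and -1.43 at 3 h and at -0.98, -0.64 and 0.49 at 9 h. At 15 h they were at -3.45, -3.18 and -2.65, below all 5 larvae of 12 h (-1.78 to -0.78). Mean levels at 9 h and 21 h differed 10.1-fold. C3_c30140 stood at -0.44 ± 0.36 at 6 h and at -2.98 ± 0.17 at 21 h, a 5.82-fold difference, and its larvae at 12 h (-1.09 to -0.63) did not overlap with those at 15 h (-3.11 to -1.39).

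Of the described genes, the orphan receptor NR0B2 had the largest amplitude (1.46 ± 0.16, peak 8.66 ± 0.40 h). In mammals this receptor, also called small heterodimer partner, lacks a DNA-binding domain and represses other nuclear receptors, among them those that drive bile acid synthesis. Its lowest, median and highest larvae were at -0.53, 0.62 and 0.97 at 0 h and at -0.86, 0.87 and 1.80 at 3 h. At 6 h they were at 1.74, 2.26 and 2.85. Larvae of 0 h and 3 h overlapped, and its largest step up was from 3 h to 6 h. Its decline was gradual. The mean was 1.73 ± 0.67 at 12 h and 0.90 ± 0.64 at 15 h. It was -0.03 ± 0.67 at 18 h, with its minimum of -1.11 ± 1.07 at 21 h, and larvae of neighbouring times overlapped throughout. Means at 6 h and 21 h differed 10.5-fold, without overlap (at 21 h -2.34 to 0.62).

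NCOA7, known in mammals as a coactivator of nuclear receptors and as a protein of oxidative stress resistance, had an amplitude of 1.29 ± 0.10 and a peak at 8.05 ± 0.28 h. Its lowest, median and highest larvae were at -4.48, -4.12 and -3.27 at 0 h, at -3.40, -2.60 and -1.81 at 3 h and at -2.58, -2.15 and -1.0 at 9 h. It kept this level until 12 h (-2.76, -2.20 and -2.0) and was at -4.54, -4.04 and -3.43 at 15 h, without overlap with 12 h. Larvae of 0 h and 3 h overlapped, as did those of 3 h and 6 h (-2.40 to -1.87), so its rise had no gap between neighbouring times. At 21 h, where its mean was lowest, it was well above background in 2 of 6 larvae, and no fold is given against that time.

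**Figure D4:**
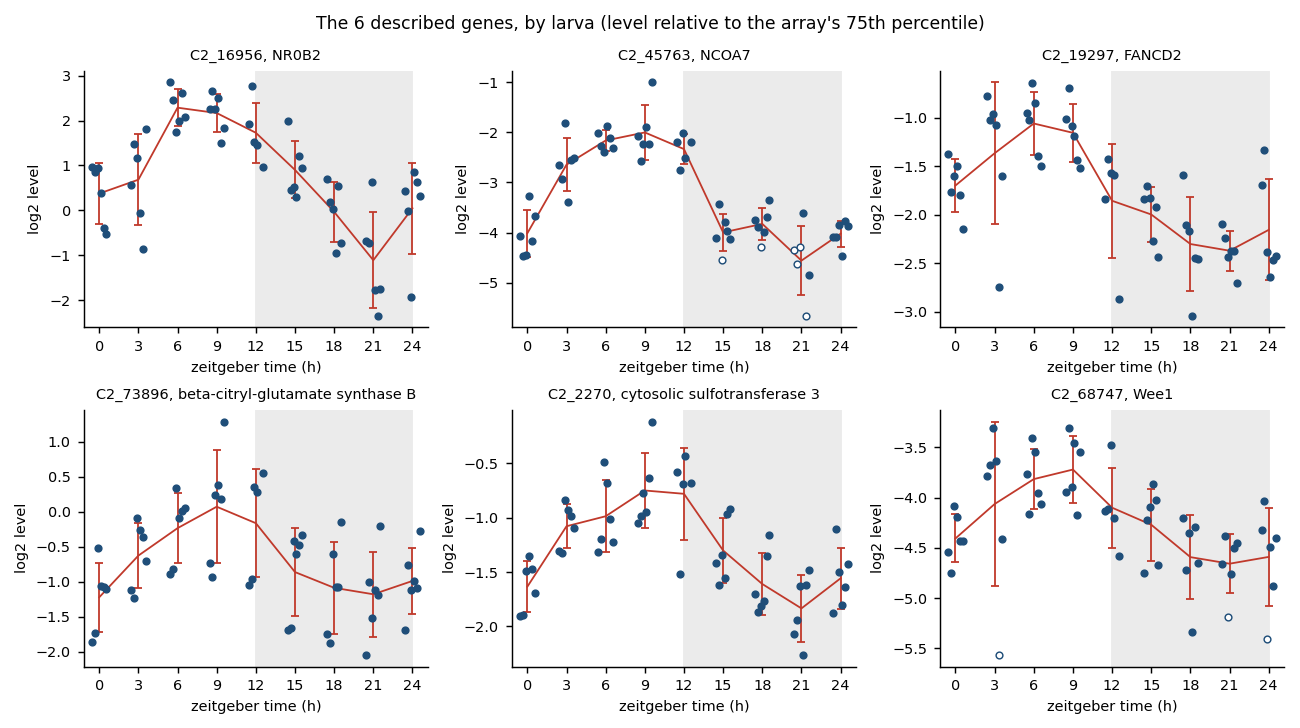
Log2 level relative to the 75th percentile of the array in each larva (points, open where not well above background) of the 6 described genes by zeitgeber time, with means and SD in red and darkness in grey. NCOA7 drops between 12 h and 15 h without overlap, NR0B2 declines from 6 h to 21 h, and the lowest larva at 3 h of FANCD2 and of Wee1 is the same animal.

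FANCD2 belongs to DNA repair and Wee1 to the control of cell division. FANCD2 is ubiquitinated when replication forks stall at DNA crosslinks and is needed for their repair, and Wee1 phosphorylates cyclin-dependent kinase 1 and so holds cells back from mitosis. FANCD2 had lowest, median and highest larvae of -1.5, -0.98 and -0.64 at 6 h and of -2.71, -2.37 and -2.09 at 21 h, without overlap. At 12 h, in light, its mean was -1.85 ± 0.59, beside -1.15 ± 0.30 at 9 h, and the larvae of these times overlapped. The 12 h mean was lowered by replicate 6, on slide 7, at -2.87. The other larvae of 12 h were from -1.83 to -1.42, and the median was -1.58. The peak of FANCD2 was fitted at 6.82 ± 0.49 h. Wee1 was dim, with -4.18, -3.72 and -3.31 at 9 h and -5.19, -4.58 and -4.38 at 21 h, and it was well above background on 50 of 53 arrays. Its groups at 9 h and 21 h did not overlap, and its peak was fitted at 8.10 ± 0.66 h. In both, replicate 5 at 3 h was the lowest larva of its time (-2.75 and -5.56). C2_9488, a clone of amplitude 0.92 ± 0.10, was lowest in the same animal (-3.72, against -1.96 to -1.03 in the other 5), and it stood at -1.67, -1.34 and -0.81 at 6 h and at -3.64, -3.33 and -2.90 at 21 h, without overlap. Its deviations from the time mean followed those of FANCD2 (r = 0.77) and Wee1 (r = 0.69) over the 53 arrays. Without replicate 5 at 3 h these values were 0.66 and 0.52 over 52 arrays. These correlations had no slide term, and FANCD2 also moved with the slide. At every time but 21 h, its lowest larvae were those on slides 5 to 7. At 24 h these were at -2.64, -2.46 and -2.42, below the larvae on slides 2 to 4 (-1.69, -1.33 and -2.38). Its R2 was 0.516 without and 0.65 with slide as a block (there as a share of the variance within slides). How far slide carries these correlations was not tested.

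Descriptions were at hand for 277 genes of the array, mostly genes that the study lists for changing over the day. Counts by function hold for those alone. Many of the descriptions come from the study's pathway lists, which are given by cluster, and the clusters were made from these same arrays. Which functions have described genes at which hour is thus partly set by that choice. No order of functions is read from the counts or peak times below. In the windows from 3 h, 6 h and 9 h, 58 of 126, 6 of 46 and 29 of 79 genes had a description. A low count from 6 h to under 9 h is therefore not read as a lack of that function. Among 17 described genes of DNA replication and repair, 14 met the R2, amplitude and detection limits and 11 of these peaked from 3 h to under 6 h. Proliferating cell nuclear antigen (C2_228), the sliding clamp of replication, peaked at 4.82 ± 0.45 h, and the large subunit of replication protein A (C2_6841), which binds single-stranded DNA, at 4.80 ± 0.52 h. FANCD2 was the only one of the 14 from 6 h to under 9 h. Among 19 described genes of mitosis and cell division, 14 met the limits. Wee1 was the earliest of them, 4 peaked from 9 h to under 12 h and 9 from 12 h to under 15 h. Cyclin A2 (C2_4302) peaked at 11.1 ± 0.49 h, cyclin-dependent kinase 1 (C2_75402) at 11.4 ± 0.66 h and cyclin B1 (C2_3801) at 14.1 ± 0.50 h. Differences between the peak times of these genes were not tested. Of 10 described clock and clock-linked genes 9 met the limits, 0 of them from 6 h to under 9 h, with 5 from 3 h and 2 from 9 h (BMAL1, C2_16398, at 10.0 ± 0.46 h).

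The other 2 described genes encode metabolic enzymes. Beta-citryl-glutamate synthase B joins citrate to glutamate and, in mammals, makes N-acetylaspartylglutamate, and cytosolic sulfotransferase 3 adds sulfate to phenolic compounds in zebrafish. The synthase (peak 8.76 ± 0.68 h) was at -1.85, -1.08 and -0.51 at 0 h, at -0.92, 0.21 and 1.29 at 9 h and at -2.04, -1.15 and -0.20 at 21 h, so its groups overlapped. Its values also moved with the slide. Replicates 1 and 2, which are mostly on the first 2 slides, were the lowest larvae at 0 h, 3 h, 6 h, 9 h, 12 h, 15 h and 18 h, and R2 was 0.381 without and 0.886 with slide as a block (there as a share of the variance within slides) and the peak with the block was 8.58 ± 0.21 h. The sulfotransferase was at -1.91, -1.59 and -1.35 at 0 h, at -1.05, -0.86 and -0.12 at 9 h and at -2.26, -1.79 and -1.48 at 21 h. At 12 h it was still at -0.78 ± 0.42. Its 0 h and 9 h larvae did not overlap, and with slide as a block the peak was 8.68 ± 0.32 h. Of 8 described antioxidant and detoxification genes 6 met the limits, 3 of them from 3 h to under 6 h and 2 from 9 h to under 12 h.

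The remaining 3 clones of the 12 largest amplitudes were well above background in every larva. C3_c6203 was at 2.89, 3.22 and 3.69 at 6 h and at 0.15, 1.40 and 1.95 at 18 h. C3_c33487 was at 0.70, 1.23 and 1.55 at 6 h and at -1.04, -0.74 and -0.23 at 21 h. Neither overlapped between these times, and the 2 clones deviated together within sampling times (r = 0.89). C3_c29275 was at 4.36, 5.17 and 5.44 at 6 h and at 2.72, 3.01 and 3.58 at 18 h. It had its largest step between neighbouring means, 1.24, from 21 h (3.15 ± 0.56) to 24 h (4.40 ± 0.30), in the last hours of darkness, and the larvae of those times did not overlap.

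The other 30 clones had amplitudes from 0.40 to 0.78 and were highest at 6 h (17), at 9 h (9), at 3 h (C2_60928, C2_488 and C2_15806) or at 12 h (C3_lrc6541). Their highest mean was 1.64-fold to 3.88-fold their lowest. The upper end was C3_lrc6541, whose means stayed between -1.16 and -0.46 at 7 of the 9 times and were -2.42 ± 0.93 at 18 h and -1.68 ± 0.51 at 21 h, so that its course was a dip in mid-darkness rather than a daytime maximum. For 4 of the 46 genes (C2_60928, C2_73896, C2_488 and C2_25360) the larvae of the highest time overlapped with those of the lowest. Both times were picked from the values that chose the genes, and the share over the whole array was not computed, so nothing is read from this count. The 5 genes printed on 2 spots (C2_54667, C2_23255, C2_5156, C2_2270 and C2_68747) were also fitted from each spot alone, and the widest pair of peaks was 7.92 h and 8.29 h, for Wee1.

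The genes differed in how they left the daytime level. From 0 h to 3 h the mean was higher at the later time for 46 of 46 genes, beside 60.3% of all genes, and from 12 h to 15 h it was lower for 38 of 46, beside 45.8% of all genes. The limits on the fitted peak and R2 favour both directions, so nothing is read from these counts. The largest step down between neighbouring times was from 9 h to 12 h, still in light, for 15 genes and from 12 h to 15 h, after light off, for 22. It was from 15 h to 18 h for 7 and from 18 h to 21 h for 2, NR0B2 and C2_1025. The group from 9 h to 12 h held FANCD2, Wee1 and C2_9488, and at 12 h its genes were at 22.1% to 59.5% of the way from their lowest to their highest mean. In FANCD2, Wee1 and C2_9488, replicate 6, on slide 7, was the lowest larva at 12 h (-2.87, -4.58 and -2.69). The steps were not computed without this larva, so how far it sets the grouping was not tested. The group from 12 h to 15 h held the 3 all-or-none clones, C2_60298, C3_c44164, C3_c30140, NCOA7, the synthase and the sulfotransferase, and was at 47.9% to 100% at 12 h.

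These groups were also unlike in the larvae within a time. Over the 105 pairs of the 15 genes with a step from 9 h to 12 h, the median correlation of deviations from the time mean was 0.45, and 50 pairs were above 0.5. Over the 231 pairs of the 22 genes with a step from 12 h to 15 h it was 0.08, and 17 pairs were above 0.5. C2_3066 and C2_13507 (r = 0.91) and C2_2495 and C2_3066 (r = 0.90) led the first group. Replicate 5 was the lowest larva of 3 h in 11 of the 15 genes of the first group and in 4 of the 22 of the second. Without it the medians were 0.42, with 47 pairs above 0.5, and 0.08, with 17. Over all 1035 pairs of the 46 genes the median was 0.07. All values come from the same 53 arrays and are descriptions. The groups were made from the time means of these same larvae, with 5 larvae at 12 h. Genes that deviate together in a larva can share a shift of the mean at 12 h and so fall in one group. The grouping can thus favour a higher correlation within a group. The correlations had no slide term, and whether the groups differ beyond this was not tested.

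Among the 126 genes that peaked from 3 h to under 6 h, the largest step down was most often from 9 h to 12 h (53 genes, 42.1%), and 30 (23.8%) were nearer to their highest than to their lowest mean at 12 h. Of the 46 genes here 34 (73.9%) were, and of the 79 that peaked from 9 h to under 12 h all 79 were, with the largest step down most often from 18 h to 21 h (36 genes, 45.6%). Since these values are part of the same courses that set the windows, the order of the windows is fixed by their choice and no test was made.

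**Figure D5:**
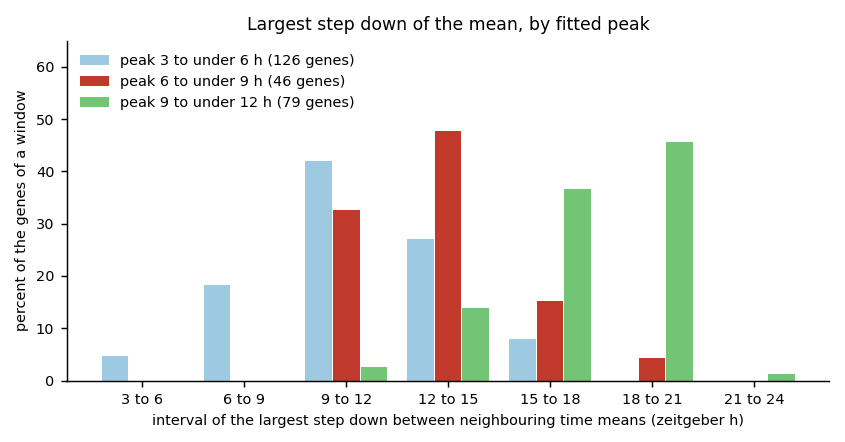
Percent of the genes of each window of fitted peak (3 to under 6 h, 126 genes; 6 to under 9 h, 46 genes; 9 to under 12 h, 79 genes) by the interval between neighbouring sampling times in which their mean had its largest step down. Red bars reach 47.8% from 12 h to 15 h and 32.6% from 9 h to 12 h.

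A pair of measures that the limits do not name were tested in limma over all 13,940 genes with Benjamini-Hochberg adjustment and a threshold of 0.05. The same larvae set both the choice and the tests, and the limit on R2 of a 24 h cosine bounds both a 12 h term and a difference of 24 h from 0 h in a chosen gene, so low counts among the 46 are descriptions. The first was whether 12 h terms added to the 24 h fit of a gene. Such terms can stand for 2 maxima a day or for a single peak or dip that is not a cosine. On the whole array 13 genes passed, or 0.0933%, and 0 of the 46 did, with a lowest adjusted p of 0.347. At an unadjusted p under 0.05 there were 7 of 46, beside 3.97% of all genes. C2_25435 had the lowest p, with a 12 h amplitude of 0.33 (adjusted p = 0.347 by limma), and with slide as a block it passed (amplitude 0.31, adjusted p = 0.0408 by limma). It was at -2.78 ± 0.33 at 6 h and -2.56 ± 0.41 at 9 h, and between -4.16 and -3.30 at the other 7 times. C3_lrc6541 came next with a 12 h amplitude of 0.39 (adjusted p = 0.599 by limma). The median 12 h amplitude was 0.12 over the 46 genes, 0.12 over the 886 rhythmic genes and 0.09 over all genes. In the windows from 3 h and from 9 h, 0 and 2 genes passed, with medians of 0.13 and 0.15. There, 23 of 126 and 15 of 79 genes had an unadjusted p under 0.05 by limma, so the 7 of 46 are not particular to this window.

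The second question was whether larvae at 24 h had returned to the level of larvae at 0 h, which a 24 h cosine takes as equal. By limma 0 of 13,940 genes passed (0%) and 0 of the 46, with a lowest adjusted p of 0.965. At an unadjusted p under 0.05 there were 7 of 46 genes, beside 3.21% of all genes. The difference of 24 h minus 0 h was above 0 in 15 of 46 genes, beside 60.4% of all genes, with a median of -0.08 against 0.06. In the windows from 3 h and from 9 h the median was -0.13 and -0.03. There, 5 of 126 and 1 of 79 genes had an unadjusted p under 0.05 by limma. Among the 7 genes were the 3 all-or-none clones, which passed the background limit in 0 of 6 larvae at 0 h and in replicates 5 and 6 alone at 24 h, so that their differences have no exact size. The other 4 had lower means at 24 h (adjusted p = 0.965 by limma for each). The difference was -0.73 ± 0.27 (SE) for C2_9488, -0.58 ± 0.28 for C2_23255, -0.56 ± 0.24 for C2_488 and -0.37 ± 0.16 for C2_15806. Without replicates 4 and 5 at 3 h and replicates 5 and 6 at 24 h these were -0.64 ± 0.24, -0.38 ± 0.27, -0.39 ± 0.24 and -0.22 ± 0.17, and 1 of the 46 genes, C2_9488, was left at an unadjusted p under 0.05.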

How the data were processed

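The authors deposited the scanner output of 53 single-colour arrays, made with Agilent Feature Extraction 11.5.1.1 per the labels. Its intensity values, as deposited, are background-corrected and not on a log scale. The authors also deposited a table of log2 values, which proved to be scaled on each array's 75th percentile and centred per probe, and it served as an alternative. Control spots (536 per array) were left out, and the log2 of the processed intensity was taken minus the 75th percentile of the array. Spots were averaged per gene, which gave 13,940 genes. A gene counted as well above background on an array when any of its spots did. Rhythms were fitted by least squares in Python 3.11.15 (numpy 2.4.6), with standard errors of amplitude and peak by the delta method. Tests used limma 3.58.1 in R 4.3.3 with no block. They were also run on simulated data with known changes, of which the outcome is not given here. Replicate numbers are those of the labels, and p-values measure the spread between single larvae. The number of arrays limits the precision.

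Arrays lay on 7 slides scanned in 3 batches, each slide with at most 1 array of a sampling time. Named genes are the 12 of largest amplitude, the described ones and those nearest each limit. Any other gene named was picked after its values were known. The 46 genes, the lists and the tests were chosen with earlier results of these data known. A pair of clones (2) is not reported here. The alternatives were other background corrections and normalizations, outlier spots left out, slide or replicate number as a block, each replicate number left out, no 0 h or no 24 h larvae, other limits and a filter on dim probes. The normexp alternative (offset 50) was run on the median spot signal. The labels and the methods give different numbers of tanks (4 and 3) and of larvae taken at each sampling time (10 and 6).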

Additional observations from a re-analysis of the deposited data

Results flagged for a closer look

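Within a sampling time, 15 values, from 11 different larvae, stood far from the others in a Dixon test of 153 groups of larvae, and chance sets apart about 1 group in 20. For C3_c41564, replicate 4 at 3 h was at -6.39 with the others from 1.06 to 4.90. Replicate 3 at 12 h was the highest larva in all 3 all-or-none clones, at 5.05 for C3_c41564 (others 1.42 to 1.89), at 4.59 for C3_c29574 (others 1.02 to 2.01) and at 3.66 for C3_c53385 (others 0.29 to 1.20). C2_60298 was at -1.13 in replicate 5 at 15 h, with the others from -4.05 to -3.27. Replicate 3 at 24 h was low in NR0B2 (-1.93, others -0.02 to 0.85) and in C3_c30140 (-4.04, others -2.40 to -1.73).

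C3_c44164 was at -2.82 in replicate 3 at 0 h (others -4.0 to -3.57), and C3_c30140 at -1.54 in replicate 1 at 9 h (others -0.53 to -0.24). C3_c33487 was at -1.07 in replicate 6 at 15 h (others -0.55 to -0.34). C3_c29275 was at 4.36 in replicate 3 at 6 h (others 5.10 to 5.44). C2_9488 was at -3.72 in replicate 5 at 3 h (others -1.96 to -1.03). FANCD2 was at -2.87 in replicate 6 at 12 h (others -1.83 to -1.42), and cytosolic sulfotransferase 3 at -1.51 in replicate 2 at 12 h (others -0.69 to -0.43). The mean of the 46 genes was 1.1 in replicate 3 at 6 h, with the others from 0.87 to 0.93.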

How the results depend on the processing

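The count of genes meeting the limits changed most with the normexp background correction, which gave 19 genes (17 of them among the 46) and a median amplitude of the 46 genes of 0.38 in place of 0.58. Under the other 15 settings that left out no replicate number the count was 32 to 67, and without each replicate number it was 44 to 55. Median centring gave 63 genes and quantile normalization 59, with 46 and 45 of the 46 among them. The median fitted peak of the 46 genes lay between 7.35 h and 7.77 h under the 15 settings it was computed for (not for the other limits or without 0 h or 24 h larvae). The genes were chosen by this peak on the same arrays, which favours a narrow range. Slide as a block gave 55 genes and let 1 gene, C2_25435, pass the 12 h terms; the cause was not tested. Under the other settings in which the tests were run (normalizations, replicate block, each replicate number or 4 larvae left out, dim probes filtered), 0 of the 46 passed either. The replicate block gave 53 genes, a median peak of 7.55 h, a median amplitude of 0.58, and 0 genes past each test. Same-numbered larvae correlated with a median of 0.19 (0.22 on the same slide, -0.04 for other numbers), and 28 of 53 were closest to their own number. Same-numbered larvae thus shared something, which the lowest correlation of -0.25 does not exclude. Replicate number partly follows slide, so their parts in this cannot be told apart. The main tests held neither as a block. On the whole array 21 genes passed the 12 h terms with slide as a block and 18 with replicate number, beside 13 without. Without the 4 larvae that stand apart, an alternative chosen after seeing the data, 43 genes met the limits, 38 of them among the 46. Signal over background limits the dim genes, and levels of the all-or-none clones at night have no exact size.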
